A study of Mus musculus with 20 samples.

Results

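The genotype difference in gonadal fat was compared with the genotype difference in liver, gene by gene, over all 20 of the 20 RNA-seq libraries of the series. The libraries were chosen by tissue and genotype alone: 10 came from the gonadal fat pad and 10 from the liver of C57BL/6 mice. Each tissue held 5 libraries of the genotype labelled AdEpsKO, called KO here, and 5 of WT. The series names its mice as deficient in protein kinase C epsilon (PKCepsilon, gene Prkce). The sources used here do not expand the label AdEpsKO and do not give the cells in which the gene was removed, the part that was removed, or the age and sex of the mice. All mice, WT included, had 1 week of high-fat feeding and a fast of 6 h before the tissues were taken. The labels give 5 mice per group and number the libraries of each group from 1 to 5, but they do not say that a fat and a liver library with the same number came from the same mouse.

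PKCepsilon is a serine/threonine kinase of the protein kinase C isoforms that diacylglycerol, and not calcium, recruits to membranes. In liver it has been linked to diacylglycerol that accumulates under fat feeding and to reduced signalling through the insulin receptor. Gonadal fat stores triglyceride, releases fatty acids during a fast and secretes adipokines. The liver takes up those fatty acids, makes glucose and secretes most plasma proteins.

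Expected counts summed to 12880900 to 17276900 per fat library and to 13836400 to 20784100 per liver library. Levels below are in CPM, the count of a gene divided by library sizes scaled over all 20 libraries, and the 5 values of a group stand in the order of replicates 1 to 5. Markers checked the tissues: the summed level of 8 mature adipocyte genes was 17993 to 26995 CPM in WT fat and 14532 to 21728 CPM in KO fat, and that of 10 hepatocyte genes was 184950.0 to 214321 CPM in WT liver and 153401 to 199484 CPM in KO liver. Several libraries stood apart. KO fat 2 held 1501 CPM of bladder epithelium genes (no other fat library exceeded 20.02 CPM). WT fat 4 and KO fat 3 held 477 and 423 CPM of hepatocyte genes (no more than 71.7 CPM elsewhere in fat), and WT fat 3 and KO fat 3 had the highest macrophage sums, 2893 and 2013 CPM. Skeletal muscle genes summed to 798 CPM in WT fat 2 and 527 CPM in KO fat 2 (no more than 308 CPM elsewhere in fat), and to 255 and 438 CPM in WT liver 2 and WT liver 4 (no more than 54.2 CPM elsewhere in liver). In KO liver 5, levels depended on the GC content of the transcript more steeply than in any other library. Values without these libraries are given beside the results they moved most.

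Prkce itself, the gene the KO label names, was read first (ENSMUSG00000045038, chr17:86167785-86657919 in GRCm38). In WT fat it stood at 37.1, 44.5, 25.8, 48.2 and 26.5 CPM, and in KO fat at 24.9, 25.5, 16.1, 25.3 and 20.7 CPM. In liver the WT values were 14.7, 21.1, 17.4, 27.4 and 17.8 CPM and the KO values 14.8, 12.2, 19.97, 11.97 and 18.1 CPM. All 5 KO fat libraries lay below all 5 WT fat libraries, whereas KO liver 1, KO liver 3 and KO liver 5 lay inside the WT liver range. The KO to WT ratio was 0.615 (0.450 to 0.841) in fat and 0.781 (0.595 to 1.02) in liver, with 95% intervals in parentheses. Fat minus liver was -0.35 ± 0.29 on the log2 scale (± SE throughout for log2 differences), which did not pass (edgeR adjusted p = 0.962). An exact two-sided permutation test over all assignments of libraries to genotype, made in fat and liver independently of each other and chosen after the data were seen, gave p = 0.418. With same-numbered fat and liver libraries moved together, a pairing that the labels do not state, the exact test gave p = 0.325. A count over the whole gene does not read the deleted part alone, so the level left in KO does not measure how complete the deletion was.

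The main question was which genes had a genotype difference in fat that differed from that in liver. Of 15652 genes tested, 0 (0%) passed an adjusted p under 0.05 for fat minus liver, and the smallest adjusted p was 0.475 (edgeR quasi-likelihood test, Benjamini-Hochberg). At an unadjusted p under 0.05 there were 839 genes (5.36%) where 783 would be met with no difference anywhere: 431 (2.75%) with the more positive KO minus WT difference in fat and 408 (2.61%) with the more positive one in liver. DESeq2 called 2 genes, Syt11 and Cdc40, and limma-voom called 0. The median SE of fat minus liver was 0.25 on the log2 scale. In fat alone, 0 of 14707 genes (0%) passed. There, 1048 (7.13%) reached an unadjusted p below 0.05, of which 513 were higher (3.49%) and 535 lower (3.64%). In liver alone, 1 of 13298 genes passed (0.00752%), the antisense gene Hectd2os, and 1745 (13.1%) reached an unadjusted p below 0.05, of which 873 were higher and 872 lower (6.56% each). The genes below are therefore described by their values, and "higher" and "lower" mean the level in KO against WT.

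Over the 12447 genes tested in both tissues, 7561 (60.7%) had the same sign in fat and liver. The fat and liver differences correlated across genes with a Pearson r of 0.24 and a Spearman coefficient of 0.28. This is a description over genes, which are not independent replicates and share each library's depth and composition. Without WT fat 3 the Pearson r was 0.087, and leaving out any other library kept it at or below 0.33.

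**Figure D1:**
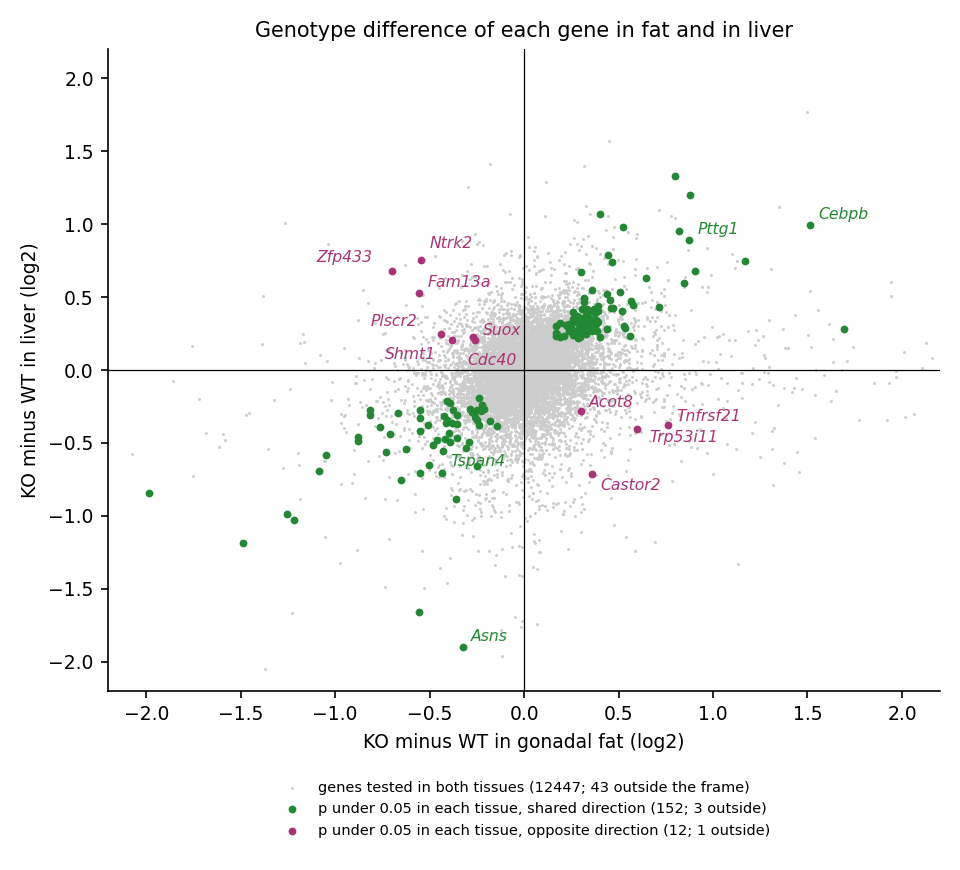
KO minus WT in gonadal fat (horizontal axis, log2) against KO minus WT in liver (vertical axis, log2) for the 12447 genes tested in both tissues, grey. Green points are the 152 genes with an unadjusted p under 0.05 in each tissue and the same direction, and purple points the 12 with opposite directions. The green points run from lower left to upper right along both arms, and the labelled purple points lie in the other 2 quadrants, apart from Ctse, which falls outside the frame.

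The 20 genes with the smallest p for fat minus liver were 11 with a positive and 9 with a negative difference, and in 14 of them the KO and WT ranges did not overlap in liver, against 2 in fat (over the genes tested in both tissues, ranges were separate for 2.94% in liver and 1.37% in fat). These genes were picked by the same contrast, so that count is a description. The first to be described act in membrane traffic or transport. Syt11, a synaptotagmin of vesicle traffic, stood at 2.41, 3.22, 2.46, 2.26 and 2.05 CPM in WT liver and 4.32, 4.08, 3.84, 4.77 and 6.001 CPM in KO liver. In fat its values were 10.1, 8.69, 13.1, 10.8 and 9.89 CPM in WT and 8.59, 8.61, 9.88, 7.81 and 9.58 CPM in KO. Every KO liver library exceeded every WT liver library, and the fat ranges overlapped with most KO values at the low end. Fat minus liver was -1.12 ± 0.21 (edgeR adjusted p = 0.475).

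Pqlc3, a PQ-loop membrane protein, went the other way. Its liver level was 1.35 to 2.005 CPM in WT and 0.810 to 0.991 CPM in KO, without overlap, against 25.9 to 40.5 and 31.3 to 45.4 CPM in fat, where the ranges overlapped (fat minus liver 1.06 ± 0.22). Slc35e4, an orphan member of a nucleotide sugar transporter family, ranged from 0.748 to 3.13 CPM in WT liver and from 0.227 to 0.720 CPM in KO liver, with overlapping fat ranges of 10.4 to 16.1 and 7.97 to 15.02 CPM (1.96 ± 0.45). Slc22a4, a carrier of organic cations and ergothioneine, was at 24.3 to 34.7 CPM in WT fat and 14.99 to 25.02 CPM in KO fat, and at 3.68 to 5.21 and 4.699 to 6.09 CPM in liver (-0.81 ± 0.21), and its ranges overlapped in both tissues. Micall2, an adaptor of endocytic recycling, and Sec14l1, a SEC14-domain protein, had lower KO values without overlap in liver, with log2 differences of -0.69 and -0.38, against 0.54 and 0.12 in fat.

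Signalling and metabolic genes formed another part of the 20. Itpkb, a kinase that phosphorylates inositol trisphosphate, stood at 19.97, 21.5, 21.5, 21.4 and 20.9 CPM in WT liver and at 17.1, 18.1, 17.7, 18.01 and 16.7 CPM in KO liver. The liver groups did not overlap, while in fat WT spanned 89.4 to 103 CPM and KO 100.2 to 122 CPM. Its fat minus liver difference of 0.44 ± 0.095 had an edgeR adjusted p of 0.509. Acsm5, a mitochondrial medium-chain acyl-CoA synthetase, showed the reverse arrangement, with the difference in fat: WT fat stood at 18.5, 18.7, 13.3, 35.5 and 22.4 CPM and KO fat at 13.5, 10.4, 8.18, 9.64 and 6.85 CPM, a log2 difference of -1.16 ± 0.26, against 0.048 ± 0.12 in liver. The fat groups overlapped by KO fat 1 and WT fat 3 alone, and leaving out WT fat 4, the highest value, moved fat minus liver from -1.21 to -0.96. Pitrm1, the protease that clears mitochondrial presequences, spanned 44.4 to 54.3 CPM in WT liver and 55.2 to 67.2 CPM in KO liver without overlap, and its fat ranges overlapped (fat minus liver -0.45 ± 0.12).

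Of the cell division genes among the 20, Ccne1, the cyclin of entry into S phase, was at 2.17 to 3.35 CPM in WT liver and 1.01 to 1.79 CPM in KO liver, without overlap. Its fat ranges were 3.88 to 5.18 and 4.52 to 5.15 CPM. Nin, a centrosomal protein that anchors microtubules, had log2 differences of 0.35 in fat and -0.22 in liver, and its ranges overlapped in both. The uncharacterised gene 0610030E20Rik was higher in every KO liver library (66.03 to 86.1 CPM) than in any WT liver library (45.8 to 62.6 CPM), with overlap in fat. The other 3 are non-coding and their counts are uncertain. Zeb2os is antisense to Zeb2, and the sources used here do not say whether reads were counted by strand. Its WT and KO liver ranges were 0.561 to 0.985 and 0.142 to 0.450 CPM. The processed pseudogene Gm16574 shares sequence with its parent gene and stayed at or below 1.22 CPM in every library. The lincRNA Gm10384 had no reads in any WT liver library and at most 0.289 CPM in KO liver, so no fold is given for liver.

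Genes were said to have opposite directions where each tissue alone gave an unadjusted p under 0.05 and the signs differed. There were 12 such genes, 0.0964% of 12447: 5 higher in KO fat and lower in KO liver (0.0402%), and 7 lower in KO fat and higher in KO liver (0.0562%). As a test of a difference in both tissues the larger of the 2 p-values was adjusted over all 12447 genes, and 0 (0%) passed (smallest adjusted p 0.9997). The number to be met with no difference anywhere was not worked out for this rule, so 12 is not read as an excess. The 12 were chosen by these values, so what follows describes them. A fit with 1 library left out keeps the other libraries that picked these genes, and the fit of the other tissue unchanged. Meeting the rule there is therefore no independent support.

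Cdc40, the pre-mRNA splicing factor Prp17 (ENSMUSG00000038446, chr10:40831621-40883311), was the only gene of the 12 whose KO and WT ranges did not overlap in either tissue (0.00803% of 12447). WT fat stood at 31.1, 30.7, 26.3, 28.7 and 27.6 CPM and KO fat at 23.99, 22.6, 24.2, 24.7 and 25.3 CPM. In liver the WT values were 40.01, 43.5, 37.5, 43.6 and 44.5 CPM and the KO values 52.2, 45.99, 47.9, 48.98 and 48.2 CPM. All 5 KO libraries were thus below WT in fat and above WT in liver. The KO to WT ratio was 0.836 (0.749 to 0.933) in fat and 1.16 (1.03 to 1.299) in liver, and fat minus liver was -0.47 ± 0.093 (edgeR adjusted p = 0.475, DESeq2 adjusted p under the threshold). It met the rule of opposite directions in 19 of 20 fits that left out 1 library each, and missed it without WT liver 3. Once the dependence of levels on GC content and transcript length had been removed within libraries, it missed the rule as well.

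Fam13a (ENSMUSG00000037709, chr6:58932090-59024549, minus strand) encodes a protein with a GTPase-activating domain that has been tied to fat distribution and adipocyte differentiation. WT fat stood at 348, 370.0, 272, 515 and 319.8 CPM and KO fat at 351, 303, 219.6, 213 and 158 CPM. WT liver stood at 51.3, 44.9, 41.9, 35.3 and 47.99 CPM and KO liver at 68.7, 61.1, 62.4, 67.8 and 61.4 CPM. The liver groups were separate, with every KO value above every WT value. In fat the groups overlapped: KO fat 1 and KO fat 2 lay within the WT range and the other KO libraries lay below it. The log2 difference was -0.56 ± 0.24 in fat and 0.53 ± 0.098 in liver, and fat minus liver was -1.09 ± 0.26 (edgeR adjusted p = 0.832). Fam13a met the rule in 14 of 20 fits with 1 library left out and missed it without WT fat 4 and KO fat 3.

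The promoter of Fam13a is shown because this gene had opposite signs in the tissues that the study set side by side and separate liver groups. RefSeq's start lies inside the outermost annotated transcript, so the 203 bases printed (chr6:59024550-59024752, GRCm38.p6, minus strand, 5′ to 3′, from RefSeq) end where that transcript begins, and 47 bases of the 250-base window are not printed. Capitals mark a CCAAT box on the opposite strand, whose first base is 235 before the RefSeq start.
Fam13a: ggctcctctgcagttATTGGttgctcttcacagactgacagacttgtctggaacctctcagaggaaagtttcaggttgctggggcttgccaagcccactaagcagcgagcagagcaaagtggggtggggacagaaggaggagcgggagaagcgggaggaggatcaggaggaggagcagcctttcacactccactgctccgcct
Another CCAAT match starts 44 bases before the start, outside the printed part. CCAAT on either strand is found in 33.8% of 32851 mouse promoter windows of this length. The GC box, the CRE and its 5-base core, and the C/EBP-ATF element, all spelled out below for Asns, had no match in the Fam13a window, and neither had the E box (CACGTG, in 6.0% of windows) or the TATA box (TATAAA, in 12.4%).

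Receptors made up the next part of the 12. Ntrk2, the TrkB receptor of brain-derived neurotrophic factor, stood at 141, 147, 154, 165 and 170.2 CPM in WT fat and 128, 56.3, 99.7, 121 and 128 CPM in KO fat. In liver it was at 7.297, 13.5, 4.63, 9.05 and 9.496 CPM in WT and 24.8, 13.2, 13.4, 10.4 and 13.1 CPM in KO. The fat groups were separate with KO below WT. The liver groups overlapped through WT liver 2, and KO liver 1 was far above the other KO values. Fat minus liver was -1.30 ± 0.36, and Ntrk2 met the rule in all 20 fits with 1 library left out.

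Tnfrsf21, death receptor 6 of the tumour necrosis factor receptor family, had the opposite arrangement. WT fat stood at 14.3, 15.8, 16.96, 11.2 and 14.6 CPM and KO fat at 15.9, 44.3, 19.4, 20.6 and 23.5 CPM. Liver values were 14.2, 12.1, 14.4, 12.3 and 10.01 CPM in WT and 8.99, 9.76, 11.5, 9.45 and 9.04 CPM in KO. KO fat 2, the library with bladder epithelium transcripts, was highest by a wide margin, and 1 KO value in each tissue lay within the WT range. Without KO fat 2, fat minus liver was 0.81 in place of 1.13, and the rule was still met in each of the 20 fits with 1 library left out. Castor2, of the arginine sensor family that restrains mTORC1, stood at 15.4, 20.3, 19.1, 16.01 and 16.9 CPM in WT fat and 21.3, 26.6, 20.03, 20.6 and 24.2 CPM in KO fat. Its liver values were 2.25, 5.31, 4.93, 5.84 and 3.42 CPM in WT and 3.18, 2.12, 2.51, 3.24 and 2.31 CPM in KO. The fat groups overlapped by 2 libraries, WT fat 2 and KO fat 3, and in liver WT liver 1 lay among the KO values. Castor2 met the rule in all 20 fits with 1 library left out, but not without WT liver 2 and WT liver 4.

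The metabolic enzymes among the 12 had small differences. Suox, mitochondrial sulfite oxidase, was at 17.6 to 20.2 CPM in WT fat and 11.4 to 17.4 CPM in KO fat, and at 122 to 156 and 139.5 to 180.2 CPM in liver. Shmt1, the cytosolic serine hydroxymethyltransferase of folate metabolism, had log2 differences of -0.38 ± 0.16 in fat and 0.21 ± 0.090 in liver. Acot8, a peroxisomal acyl-CoA thioesterase, ranged over 5.21 to 6.95 CPM in WT fat, 6.56 to 8.77 CPM in KO fat, 14.5 to 18.3 CPM in WT liver and 11.5 to 14.02 CPM in KO liver, separate in liver only. These 3 met the rule in 10, 7 and 11 of the 20 fits with 1 library left out. Plscr2, a phospholipid scramblase, met it in 9, with log2 differences of -0.44 in fat and 0.24 in liver.

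The remaining 3 were Zfp433, Trp53i11 and Ctse. Zfp433, a zinc finger gene, had values up to 1.32 CPM in fat and from 1.08 to 1.36 CPM in WT liver to 1.63 to 2.19 CPM in KO liver, with a fat minus liver difference of -1.39 ± 0.31. Trp53i11, a p53-inducible gene, ranged over 17.3 to 33.8 CPM in WT fat and 29.8 to 66.8 CPM in KO fat, and over 9.801 to 15.7 and 7.59 to 11.2 CPM in liver. Ctse encodes cathepsin E, an aspartic protease of epithelia and immune cells. Its fat difference rests on a single library: KO fat 2 stood at 83.2 CPM and the other KO fat libraries at 0.270 to 0.348 CPM, below most WT fat values of 0.300 to 1.83 CPM. KO fat 2 was also the library with the bladder epithelium transcripts, and their part in this value was not tested. Without it, fat minus liver moved from 7.05 to 1.28 and the rule was not met.

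**Figure D2:**
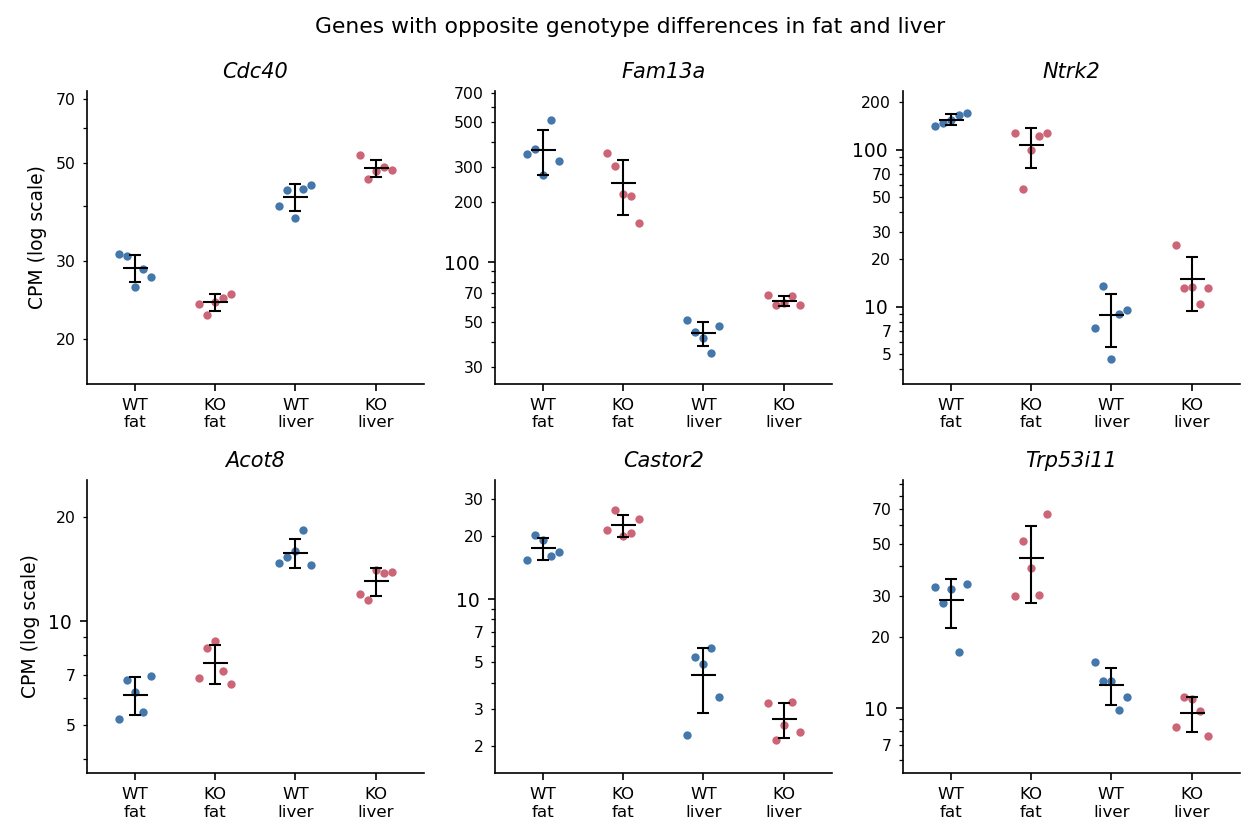
Levels in CPM (log axis) of 6 of the 12 genes with opposite directions, by group, with WT in blue and KO in red. Points are the 5 libraries of a group, and the horizontal mark and bar are the mean and SD; Cdc40 is separate in both tissues, whereas Fam13a and Acot8 are separate in liver only and Ntrk2 in fat only.

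Across settings the 12 were not stable as a list. Without KO fat 2, WT fat 4 and WT fat 5 only Cdc40, Ntrk2 and Tnfrsf21 of the 12 still met the rule. WT fat 5 was not among the libraries named above as standing apart. Shifts in that setting, here and below, are therefore not those of the marked libraries alone. Without WT fat 4 and KO fat 3, the libraries with hepatocyte transcripts, 5 did: Castor2, Cdc40, Ctse, Tnfrsf21 and Zfp433. Without WT liver 2 and WT liver 4, the libraries with skeletal muscle transcripts, 8 did. With the GC and length trend removed, 6 did. No member of any of the 46 gene lists was among the 12. The lists held 754 symbols, repeats included, against 12447 genes tested in both tissues. With so small a share, their absence from a set of 12 is uninformative.

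Genes of shared direction, with an unadjusted p under 0.05 in each tissue and the same sign, numbered 152 (1.22% of 12447): 93 higher in KO (0.747%) and 59 lower (0.474%). None of the 12447 (0%) passed when the larger p was adjusted. For this rule too, the number to be met with no difference anywhere was not worked out, so 152 is not read as an excess. KO and WT ranges were separate in both tissues for 7 of the shared genes (0.0562%): Pttg1, Tspan4, Chm, Relch, Snapc3, Isg20 and Tbc1d12. With the GC and length trend removed, Snapc3 missed the shared rule. Chm met it with a liver log2 difference of 0.18 in place of 0.44. The 12 genes with the smallest larger p were 7 higher and 5 lower in KO, and all 12 met the rule in each of the 20 fits with 1 library left out. They were picked for small p-values in these same libraries, so that outcome was likely beforehand and is no independent support.

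Tspan4, a tetraspanin of the plasma membrane and of migrasomes (ENSMUSG00000025511, chr7:141475240-141493427), led the lower genes. WT fat stood at 62.6, 64.5, 64.5, 67.7 and 65.9 CPM and KO fat at 53.1, 41.4, 52.2, 49.6 and 44.4 CPM. In liver the WT values were 68.2, 67.6, 75.1, 112 and 74.2 CPM and the KO values 48.1, 39.9, 63.6, 44.03 and 49.5 CPM. KO was below WT without overlap in both tissues, and WT liver 4 was far above the other WT values. Group means were 65.02 ± 1.899 and 48.1 ± 5.09 CPM in fat and 79.4 ± 18.4 and 49.0 ± 8.96 CPM in liver (SD, n = 5). The KO to WT ratio was 0.740 (0.654 to 0.837) in fat and 0.614 (0.488 to 0.771) in liver. The average difference over both tissues was -0.56 ± 0.093, with an edgeR adjusted p of 0.0553, the smallest of all genes and shared with Tbc1d12 and Slc12a4.

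Isg20, an interferon-induced exonuclease, was separate in both tissues too. WT fat stood at 12.5, 11.2, 15.2, 12.3 and 15.6 CPM and KO fat at 9.08, 8.86, 8.77, 9.17 and 9.75 CPM. WT liver stood at 5.29, 8.599, 5.52, 4.71 and 4.71 CPM and KO liver at 3.11, 2.95, 4.43, 3.69 and 3.62 CPM. The KO fat values were close together, and in liver the gap between the lowest WT and the highest KO value was small. The other lower genes were Tspyl2, a TSPY-like nuclear protein (log2 -0.42 in fat and -0.48 in liver), and Zfp598, the ubiquitin ligase that senses collided ribosomes (-0.41 and -0.34), besides Asns.

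Asns and Cebpb belong to the same stress programme, in which the factor ATF4 raises genes of amino acid supply, yet they had opposite signs. Asns, asparagine synthetase (ENSMUSG00000029752, chr6:7675169-7693254), stood at 54.7, 47.9, 44.7, 58.6 and 49.7 CPM in WT fat and 44.3, 35.8, 39.3, 43.5 and 41.7 CPM in KO fat. Its liver values were 0.561, 1.57, 3.55, 1.32 and 0.941 CPM in WT and 0.354, 0.378, 0.265, 0.270 and 0.795 CPM in KO. The fat groups were separate, and in liver, where no library exceeded 3.55 CPM, only KO liver 5 reached the WT range. The log2 difference was -0.32 ± 0.093 in fat and -1.90 ± 0.50 in liver, and fat minus liver was 1.56 ± 0.46 (edgeR adjusted p = 0.903).

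Cebpb, the factor C/EBP beta of early adipogenesis, gluconeogenic and acute phase genes (ENSMUSG00000056501, chr2:167688915-167690418), was higher in KO. WT fat stood at 5.16, 7.75, 11.2, 25.7 and 8.37 CPM and KO fat at 15.3, 41.9, 35.97, 48.7 and 25.02 CPM. WT liver stood at 44.4, 68.3, 36.3, 78.8 and 66.4 CPM and KO liver at 151, 129, 107, 121 and 81.8 CPM. Every KO liver library was above every WT liver library, and in fat WT fat 4 lay above the 2 lowest KO values. The KO to WT ratio was 2.86 (1.45 to 5.64) in fat and 1.99 (1.44 to 2.76) in liver, and the average difference was 1.26 ± 0.26 (edgeR adjusted p = 0.0933). Without WT fat 4 and KO fat 3, Cebpb was the 1 gene called for the average over both tissues, at an adjusted p of 0.0444.

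Both promoters are printed because these genes of the same programme had opposite signs in both tissues. Sequences are from RefSeq in GRCm38.p6, 5′ to 3′, and capitals mark GC boxes (letters GGGCGG) and cores of the cyclic AMP response element, CRE (letters TGACG), on either strand. For Asns (chr6:7693255-7693459, minus strand) 205 of the 250 bases are printed and 45 lie within the outermost annotated transcript; for Cebpb (chr2:167688665-167688914, plus strand) all 250 are.
Asns: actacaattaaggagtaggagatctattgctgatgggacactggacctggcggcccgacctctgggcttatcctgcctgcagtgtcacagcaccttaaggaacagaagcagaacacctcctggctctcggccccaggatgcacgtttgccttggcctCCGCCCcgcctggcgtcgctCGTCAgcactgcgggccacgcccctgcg
Cebpb: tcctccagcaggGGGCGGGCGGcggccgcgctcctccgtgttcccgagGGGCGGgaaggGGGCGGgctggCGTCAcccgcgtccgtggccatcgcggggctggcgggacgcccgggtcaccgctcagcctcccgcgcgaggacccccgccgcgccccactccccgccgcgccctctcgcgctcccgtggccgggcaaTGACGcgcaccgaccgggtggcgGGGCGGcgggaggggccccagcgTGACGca
In the Asns window the GC box starts 93 and the CRE core 73 bases before the RefSeq start, and a C/EBP-ATF element (TGATGNAA) starts 23 bases before it, in the part not printed. The Cebpb window held 5 GC boxes, 3 CRE cores and no C/EBP-ATF element. Of 32851 promoter windows, 32.7% hold a GC box, 17.8% a CRE core, which the full CRE (TGACGTCA, 1.5%) also contains, and 3.5% a C/EBP-ATF element. The GC content was 61.6% for Asns and 81.6% for Cebpb.

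The other 6 of the 7 higher genes included regulators of Rab GTPases. Tbc1d12, which carries a Rab GTPase-activating domain, stood at 7.86, 8.82, 7.82, 7.84 and 7.33 CPM in WT fat and 10.2, 9.01, 12.2, 9.69 and 9.87 CPM in KO fat. Its liver values were 12.1, 12.9, 11.2, 15.6 and 15.7 CPM in WT and 17.3, 19.1, 20.96, 20.4 and 21.8 CPM in KO. The groups were separate in both tissues. Chm, the Rab escort protein that presents Rabs for prenylation, had log2 differences of 0.39 ± 0.10 in fat and 0.44 ± 0.14 in liver, and Relch, a Rab11 partner in cholesterol transfer, had 0.34 ± 0.093 and 0.36 ± 0.11, each with separate ranges in both tissues. Ccng1, the p53 target cyclin G1, was at 97.6 to 127 CPM in WT fat and 122 to 156 CPM in KO fat, and at 50.02 to 60.3 and 58.9 to 78.5 CPM in liver, with slight overlap in each. The co-chaperone Nudcd2 had 0.33 in fat and 0.41 in liver, and Zdhhc21, a palmitoyl transferase, had 0.45 and 0.48.

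**Figure D3:**
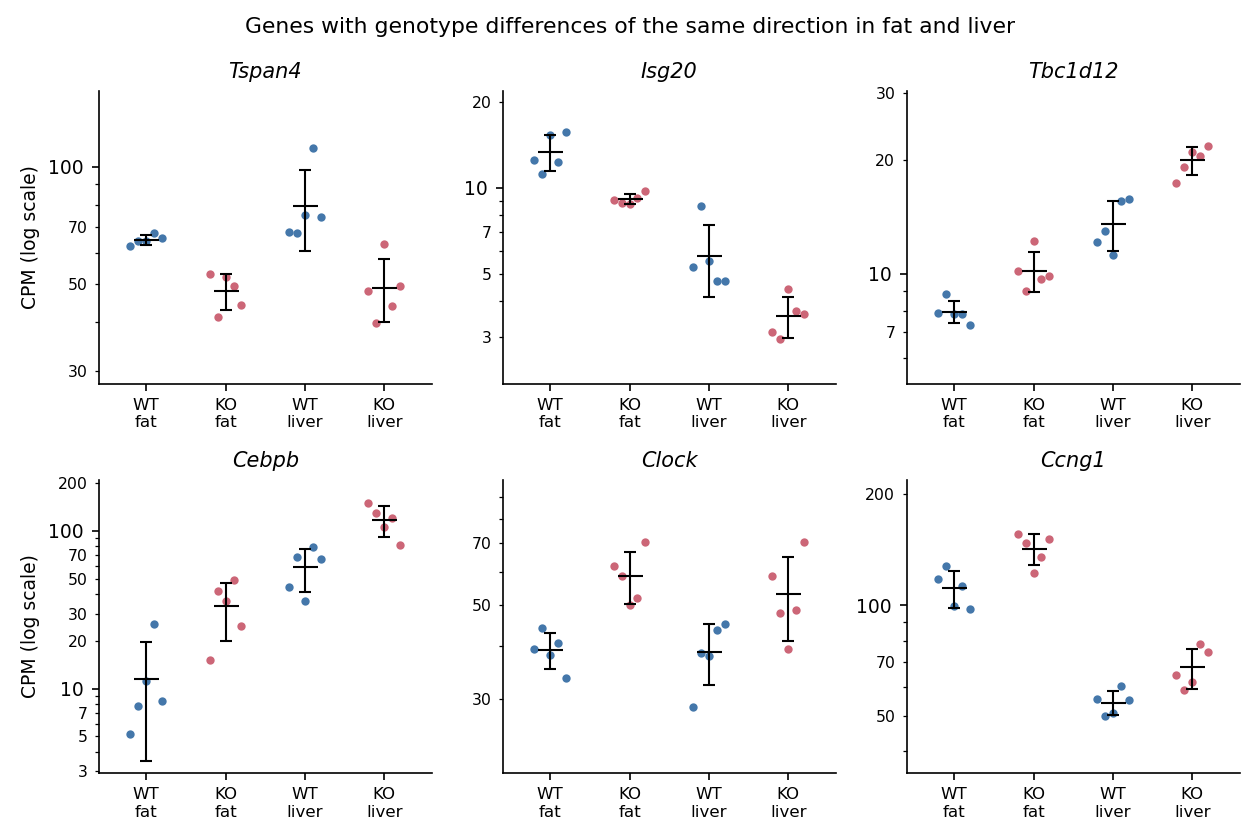
Levels in CPM (log axis) of 6 genes of shared direction, by group, with WT in blue and KO in red. Points are the 5 libraries of a group, and the horizontal mark and bar are the mean and SD; Tspan4 and Isg20 are lower and Tbc1d12 is higher in every KO library of both tissues, Cebpb is separate in liver only and Clock in fat only, and the Ccng1 groups touch in both.

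The average difference over both tissues was tested in the same fit. That fit took all libraries as independent, so its p-values do not allow for fat and liver libraries from the same mouse. At an adjusted p under 0.05, 0 of 15652 genes (0%) passed (smallest 0.0553). Unadjusted, 2255 genes (14.4%) had p under 0.05, against 783 with no difference anywhere: 1314 higher (8.4%) and 941 lower (6.01%). DESeq2 called 177 genes and limma-voom 0. Leaving out 1 library gave 0 to 21 calls, the most without WT fat 2. The 10 genes with the smallest p were 4 higher and 6 lower, with separate ranges in liver for 8 and in fat for 5 (2.94% and 1.37% of all genes tested in both tissues), a description, since the same fit picked them.

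Beyond those already described, the 10 held Slc12a4, the potassium-chloride cotransporter KCC1, at 25.3 to 37.04 CPM in WT liver and 17.8 to 21.2 CPM in KO liver, and at 47.3 to 61.6 and 39.3 to 55.7 CPM in fat. Its liver groups were separate and its fat groups overlapped, and the average was -0.42 ± 0.072. Vegfd, a lymphatic growth factor, stood at 1.28, 1.42, 2.17, 1.51 and 1.97 CPM in WT liver and 0.708, 1.06, 0.926, 0.630 and 1.16 CPM in KO liver, again separate, with log2 -0.36 in fat and -0.88 in liver. Clock, the core factor of the circadian clock, stood at 39.4, 44.2, 38.2, 40.7 and 33.7 CPM in WT fat and 61.9, 58.5, 50.1, 51.9 and 70.4 CPM in KO fat. Its liver values were 28.8, 38.5, 38.03, 43.6 and 45.3 CPM in WT and 58.7, 47.9, 39.4, 48.8 and 70.6 CPM in KO. All KO fat values were above WT, and in liver KO liver 3 lay within the WT range. With the GC and length trend removed, the liver difference of Clock was 0.22 in place of 0.44 (log2), and Clock missed the shared rule. Cdk17, a PCTAIRE-family kinase, had 0.44 in fat, where the groups were separate, and 0.28 in liver.

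Hectd2os, antisense to Hectd2, was the gene called in liver alone. It stood at 50.7, 42.2, 45.5, 46.2 and 47.4 CPM in WT liver and 72.4, 95.6, 85.5, 121 and 117 CPM in KO liver. In fat its values were 1.17 to 3.63 CPM in WT and 3.03 to 4.65 CPM in KO. The liver groups were separate and the fat groups overlapped. The liver ratio was 2.104 (1.73 to 2.56) (edgeR adjusted p = 0.011), which did not pass without WT liver 3 (0.0627), WT liver 5 (0.0706) or WT liver 2 and WT liver 4 together (0.0839). Fat minus liver was -0.69 ± 0.29 (adjusted p = 0.903). Reads of Hectd2 and of its antisense partner cannot be told apart here without knowing the strand setting.

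The genotype difference moved with the GC content of the transcript in both tissues. Over the 12426 genes with a known GC content, Spearman's coefficient was -0.18 in fat and -0.47 in liver, a description across genes that share each library. Without KO liver 5 the liver coefficient was -0.26, and without WT fat 3 or WT fat 5 the fat coefficient was -0.11. In the decile of genes lowest in GC the median log2 difference was 0.094 in fat and 0.19 in liver, and in the highest decile it was -0.012 and -0.14. Without KO liver 5 the liver medians were 0.11 and -0.069. The 93 shared-higher genes had a median GC content of 41.1%, against 49.4% over all, and 48 of them lay in the lowest decile. The 59 shared-lower genes had 53.2%, and the 12 opposite genes 49.5%. KO liver 5 had the steepest trend, -0.40 log2 per 10 points of GC, where the other 19 libraries ran from -0.086 to 0.20.

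After removal of the GC and length trend within libraries, 89 genes had a shared direction in place of 152, and 49 of the 152 were among them. The direction split turned from 93 higher and 59 lower to 21 higher and 68 lower. Opposite genes numbered 13 in place of 12. Of the 12 shared genes named above, Ccng1 and Zdhhc21 missed the rule in that fit and the other 10 met it.

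**Figure D4:**
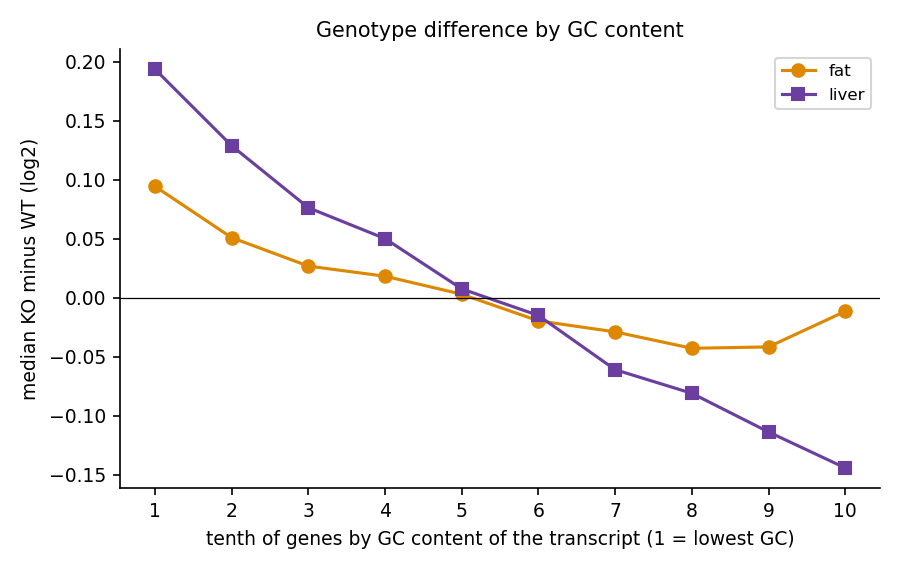
Median KO minus WT (vertical axis, log2) in each decile of the 12426 genes ordered by GC content of the transcript (horizontal axis, 1 is the lowest), for fat (circles) and liver (squares). The liver medians run from 0.19 in the lowest decile to -0.14 in the highest, and the fat medians from 0.094 to -0.043 with a return to -0.012 in the highest.

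Gene lists were read by the signs and medians of their members. Over all genes the median log2 difference was 0.0007 in fat, 0.0001 in liver and 0.0055 for fat minus liver, and 30.5% of the 12447 genes were positive in both tissues and 30.2% negative in both. Adjusted over all genes, no member of any list passed for fat minus liver or for the average. Counts of members with an unadjusted p under 0.05 are read against 2.75% positive and 2.61% negative for fat minus liver.

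Cell cycle genes were further below WT in KO liver than in KO fat on median. Of 26 tested in both tissues, 20 were negative in both and 5 were positive in fat and negative in liver. The median was -0.11 in fat, -0.93 in liver and 0.66 for fat minus liver, with 4 of 28 at p under 0.05, all positive: Bub1, Mki67, Cenpf and Prc1. Mki67, the Ki-67 proliferation marker, stood at 13.6, 35.8, 33.9, 8.77 and 11.5 CPM in WT liver and 5.24, 4.39, 6.94, 5.58 and 4.55 CPM in KO liver. In fat it stood at 24.8, 17.8, 101, 21.2 and 37.0 CPM in WT and 15.4, 22.8, 69.1, 53.9 and 24.4 CPM in KO. Its liver groups were separate, with WT liver 2 and WT liver 3 highest. Those were also the liver libraries highest in erythroid genes, at 1416 and 1121 CPM against 280.2 to 690.3 CPM in the other 8, and the part of that in the cell cycle values was not tested. In fat the groups overlapped, and WT fat 3 and KO fat 3, the libraries highest in macrophage genes, were highest. Prc1, which bundles spindle microtubules, spanned 1.88 to 2.96 CPM in WT liver and 0.360 to 1.52 CPM in KO liver. Without WT fat 4 and KO fat 3 the fat median was -0.58 and fat minus liver 0.16. That setting leaves out KO fat 3 but keeps WT fat 3, the other fat library highest for Mki67. In the other settings tried for lists, fat minus liver ran from 0.64 to 0.75. The size of the tissue difference of this list thus depended on the fat libraries kept.

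Immediate early genes, the first to be transcribed after a stimulus, had positive medians in fat and negative ones in liver: 0.089 and -0.31. Of 20 tested in both, 11 were positive in fat and negative in liver and 0 the reverse, and 3 of 23 had an unadjusted p under 0.05 for fat minus liver, all positive. Fos, a subunit of AP-1, stood at 167, 169.6, 164, 236 and 145 CPM in WT liver and 53.4, 80.8, 89.9, 69.4 and 107 CPM in KO liver. Its fat values were 9.75, 5.65, 26.2, 6.69 and 7.38 CPM in WT and 2.76, 16.7, 30.8, 23.0 and 7.43 CPM in KO. The liver groups were separate and the fat groups overlapped widely. Fat minus liver was 1.68 ± 0.67 for Fos, 0.82 ± 0.25 for Btg2, an antiproliferative factor, and 0.53 ± 0.24 for Ier2. Klf6, a Krüppel-like factor, had 0.20 in fat and -0.070 in liver. The list's fat minus liver median stayed between 0.29 and 0.38 in the settings tried for lists.

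ATF4 and amino acid stress genes were mixed in sign. Of 18, 3 were positive and 8 negative in both tissues, and 3 of 20 had an unadjusted p under 0.05 for fat minus liver, all positive: Asns, Phgdh and Nupr1. Phgdh, the entry enzyme of serine synthesis, was at 152 to 329.9 CPM in WT fat and 154 to 361 CPM in KO fat, and at 0.598 to 1.98 and 0.0723 to 0.540 CPM in liver, where the ranges were separate at low levels. Chac1, a glutathione-degrading enzyme, was lower in both, with log2 -0.56 in fat and -1.66 in liver, and its highest value, 33.9 CPM, was in WT liver 2. Of the 5 members named here, Cebpb alone was higher in KO.

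p53 targets had positive medians of 0.19 in fat and 0.032 in liver, with 3 of 17 at an unadjusted p under 0.05 for fat minus liver, all positive. Cdkn1a, the cell cycle inhibitor p21, stood at 15.8, 21.97, 30.3, 20.4 and 21.1 CPM in WT fat and 50.6, 50.8, 26.4, 33.7 and 45.6 CPM in KO fat. Liver values were 2.17, 5.38, 2.96, 5.18 and 3.17 CPM in WT and 5.45, 1.81, 1.32, 3.24 and 1.301 CPM in KO. In fat only KO fat 3 lay within the WT range, and in liver the groups overlapped. Its fat minus liver difference was 1.45 ± 0.48 (edgeR adjusted p = 0.903). Bax, a mediator of apoptosis, had 0.014 in fat and -0.44 in liver. Perp, a desmosomal p53 target, owed its fat difference to KO fat 2, at 81.8 CPM where no other fat library exceeded 5.01 CPM. Eda2r, a member of the tumour necrosis factor receptor family, was higher in liver, at 0.690 to 1.495 CPM in WT and 1.13 to 2.97 CPM in KO.

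Cholesterol synthesis and uptake genes were positive in fat (median 0.36) and near zero in liver (0.0063). Of 24, 13 were positive in both and 9 were positive in fat and negative in liver. Cyp51 and Sqle, enzymes that act after and before lanosterol, had their highest fat values in KO fat 2, 51.8 and 35.2 CPM. Without KO fat 2, WT fat 4 and WT fat 5 the fat median was 0.053.

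Enzymes of branched-chain amino acid breakdown, a mitochondrial pathway active in both tissues, had the reverse pattern. Of 19, 15 were negative in fat and positive in liver, with medians of -0.098 and 0.20, and 2 of 20 had an unadjusted p under 0.05 for fat minus liver, both negative. Mccc1, a subunit of methylcrotonyl-CoA carboxylase, stood at 96.7, 77.8, 76.2, 77.8 and 81.1 CPM in WT liver and 115, 107, 85.98, 112 and 83.6 CPM in KO liver. In fat it spanned 122 to 183 CPM in WT and 102 to 172 CPM in KO. Both tissues overlapped. Hibch, Pcca and Hibadh, which act on valine and on propionyl-CoA, had liver differences of 0.20, 0.31 and 0.24 and fat differences of -0.22, -0.073 and -0.054. The mature adipocyte sum given above was lower in KO fat on median, and its part in the fat values was not tested. Without KO fat 2, WT fat 4 and WT fat 5 the split was 9 positive in both and 8 negative in fat and positive in liver, and without WT fat 4 and KO fat 3 it was 8 and 9.

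Interferon-stimulated genes were lower in KO fat (median -0.30) and near zero in liver (0.038). Of 34, 15 were negative in both and 17 were negative in fat and positive in liver, and 2 had an unadjusted p under 0.05 for fat minus liver, both negative. Nmi, an interferon-induced adaptor of STAT factors, stood at 15.3, 9.38, 13.2, 11.9 and 13.5 CPM in WT fat and 8.05, 9.05, 8.29, 9.36 and 8.65 CPM in KO fat. In liver it stood at 29.99, 22.9, 19.7, 17.2 and 17.9 CPM in WT and 20.1, 28.5, 23.5, 26.2 and 32.3 CPM in KO. The fat groups were separate and the liver groups overlapped (fat minus liver -0.82 ± 0.22, edgeR adjusted p = 0.873). Ifih1, the cytosolic sensor of double-stranded RNA, had -0.17 in fat and 0.27 in liver, and the interferon-induced GTPases Igtp and Gbp7 had -0.85 and -0.16 in fat. Members that met the shared rule as lower in both tissues numbered 3: Isg20, Irf7, the factor that drives type I interferon genes (-0.51 and -0.38), and Ifi27l2a (-0.63 and -0.54). Without KO fat 2, WT fat 4 and WT fat 5 the list's fat minus liver median was -0.14 in place of -0.30.

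Some lipolysis and adipokine genes with a difference between tissues had their highest liver values in the same 2 WT libraries. For lipolysis, Plin1 and Aqp7 were among the genes with an unadjusted p under 0.05 for fat minus liver, both positive, and for adipokines 2 of 24 were positive (Cfd and Lep) and 3 negative. Cfd, the adipocyte-secreted complement factor adipsin, stood in liver at 0.722, 2.62, 0.197, 17.1 and 12.9 CPM in WT and at most 1.44 CPM in KO. Plin1, the lipid droplet coat of adipocytes, stood at 0.160, 0.374, 0, 4.05 and 4.11 CPM in WT liver and at most 0.810 CPM in KO liver. WT liver 4 and WT liver 5 were the high libraries for both, as for Adipoq (5.94 and 6.16 CPM). Plin1, Cfd and Adipoq are all on the mature adipocyte list, so they are not independent of each other in this. The part of these 2 libraries in the differences was not tested.

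In fat, Cfd stood at 3838, 3379, 3443, 5458 and 4258 CPM in WT and 2656, 2034, 3156, 2598 and 1957 CPM in KO, with all KO values below all WT values. Angptl2, an angiopoietin-like adipokine, and Ccdc80, a secreted regulator of adipocyte glucose handling, were also lower in KO fat (-0.44 and -0.81), with -0.061 and -0.31 in liver. Lep, leptin, had 0.12 in fat.

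**Figure D5:**
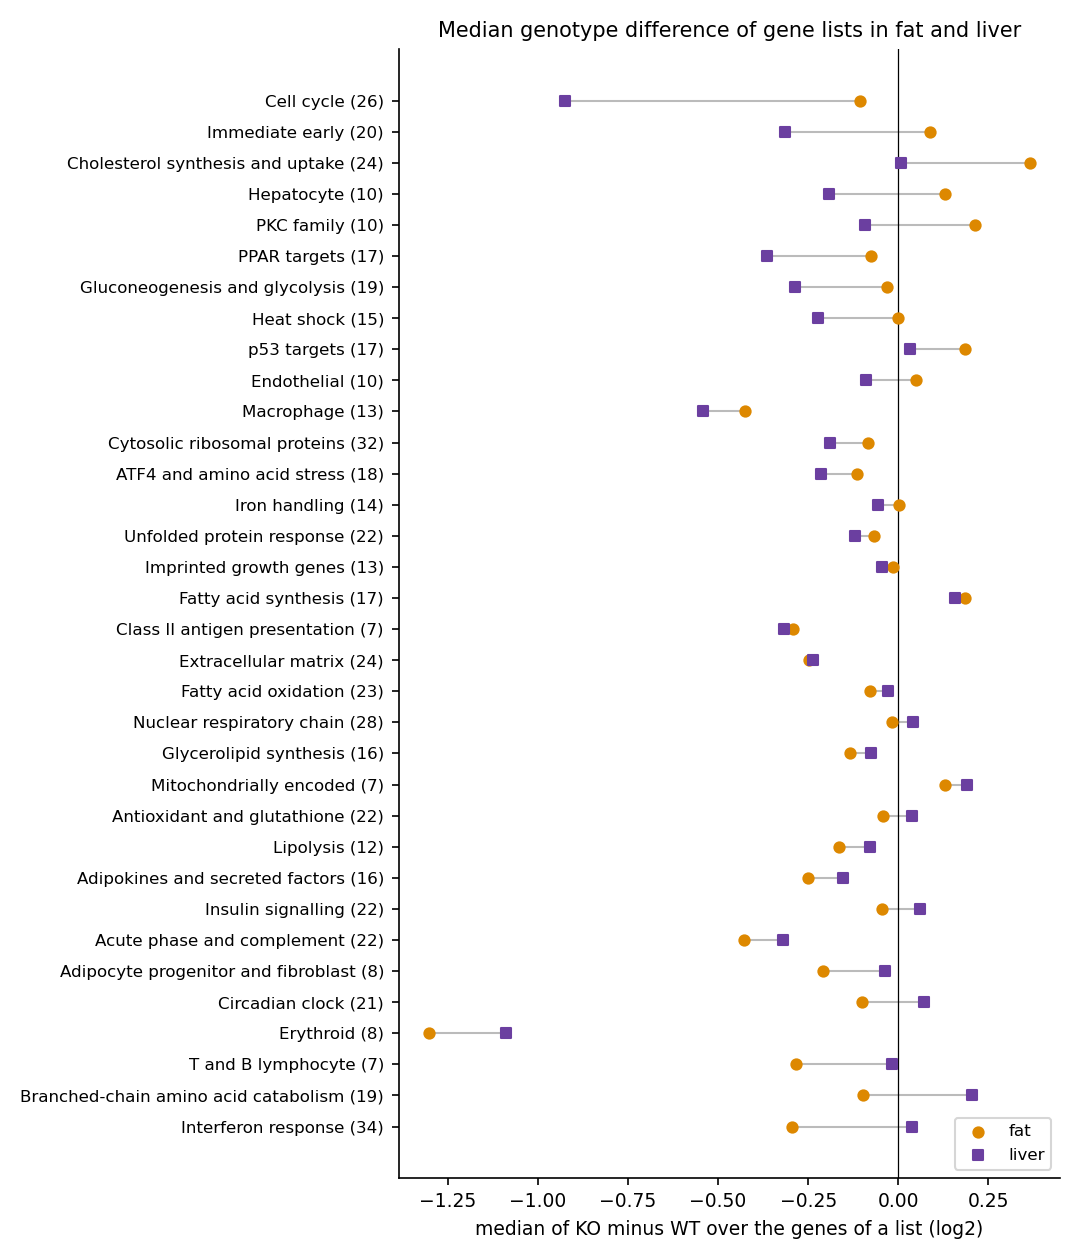
Median KO minus WT (horizontal axis, log2) over the genes of each list tested in both tissues, for fat (circles) and liver (squares); the number of genes is in parentheses, and lists with under 7 genes and the skeletal muscle markers are left out. Cell cycle genes have the widest gap, with fat at -0.11 and liver at -0.93, and erythroid genes are lowest in both, at -1.30 and -1.09.

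Other lists had the same direction in both tissues. Erythroid genes were lower in KO in fat (median -1.30) and in liver (-1.09): all 8 were negative in both, all 8 had an unadjusted p under 0.05 for the average (over all genes 6.01% were lower), and 5 met the shared rule. Slc4a1, the red cell anion exchanger, stood at 1.23, 3.34, 8.89, 4.98 and 5.63 CPM in WT fat and 0.432, 0.693, 0.744, 4.19 and 0.116 CPM in KO fat. Its liver values were 6.01, 45.6, 41.9, 8.29 and 5.82 CPM in WT and 0.778, 0.983, 5.89, 0.270 and 1.01 CPM in KO. WT liver 2 and WT liver 3 were far above the rest, and the groups overlapped in both tissues. Hba-a1, alpha globin, stood at 101, 278, 530.5, 209 and 345 CPM in WT fat and 77.3, 95.3, 222, 127 and 92.5 CPM in KO fat. In liver it stood at 174, 308, 240.0, 127 and 122 CPM in WT and 67.5, 161, 136, 66.1 and 62.8 CPM in KO. Overlap was present in both. Near-identical globin copies share reads, so single globin genes are uncertain. In whole tissue, fewer cells of a type and less RNA per cell cannot be told apart.

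Macrophage markers were lower in KO on median, at -0.42 in fat and -0.54 in liver. Of 13 tested in both tissues 11 were negative in both, and 8 of 14 had an unadjusted p under 0.05 for the average, all lower. The general markers Adgre1 and Cd68 went the other way in fat, at 0.24 and 0.11, against -0.48 and -0.72 in liver. In fat alone, Cd163 and Timd4 were the only members with an unadjusted edgeR p under 0.05. Without WT fat 4 and KO fat 3 the fat median was -0.75, but that setting keeps WT fat 3, the fat library with the highest macrophage sum. In the other settings tried for lists the fat median ran from -0.42 to -0.32. Cd163, the haemoglobin scavenger receptor, stood at 59.4, 78.8, 73.03, 84.8 and 78.7 CPM in WT fat and 49.4, 58.1, 31.7, 58.3 and 41.6 CPM in KO fat. In liver it stood at 49.2, 71.2, 37.6, 39.2 and 37.4 CPM in WT and 41.97, 21.6, 17.99, 25.4 and 33.3 CPM in KO. The fat groups were separate, and in liver KO liver 1 lay within the WT range. Timd4, a phosphatidylserine receptor of resident macrophages, was at 3.14 to 4.35 CPM in WT fat and 0.850 to 3.15 CPM in KO fat, and at 12.1 to 25.7 and 10.98 to 16.4 CPM in liver, overlapping in both. The summed macrophage level ranged over 781 to 2893 CPM in WT fat, 527 to 2013 CPM in KO fat, 804 to 1500.2 CPM in WT liver and 769 to 944 CPM in KO liver, with overlap in each tissue.

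Acute phase and complement genes were lower in both tissues, with medians of -0.43 in fat and -0.32 in liver and 19 of 22 negative in both. C3, the central complement component, stood at 957, 1183, 1286, 1774 and 1491 CPM in WT fat and 988, 533, 859.8, 974 and 863 CPM in KO fat. Its liver range was 13660.0 to 18780.0 CPM in WT and 9812 to 14230.0 CPM in KO. WT fat 4 and WT fat 5 were the highest fat libraries. C1ra, a protease of the classical pathway, had -0.54 in fat and -0.17 in liver, Socs3, the feedback inhibitor of cytokine signalling, -1.06 and -0.62, and Lcn2, lipocalin 2, -2.31 and -0.94. Without KO fat 2, WT fat 4 and WT fat 5 the fat median was 0.013 and 11 of 22 remained negative in both. That setting keeps KO fat 3, which held 423 CPM of hepatocyte genes. The fat median of the hepatocyte markers there was 1.84 in place of 0.13. Without WT fat 4 and KO fat 3 the acute phase list had a fat median of -0.36, and 17 were negative in both. The part of hepatocyte transcripts in these values was not tested.

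Extracellular matrix genes were negative in both tissues in 17 of 24 cases and positive in both in 0, with medians of -0.25 in fat and -0.24 in liver. Eln, elastin, and Mmp2, a gelatinase, had averages of -0.52 ± 0.22 and -0.38 ± 0.15. Cytosolic ribosomal protein genes were negative in both in 25 of 32 cases, with small medians of -0.085 and -0.19, and with the GC and length trend removed 19 were. Of 22 genes of the unfolded protein response, 14 were negative in both. Xbp1, its transcription factor, had -0.46 in fat and -0.28 in liver, and Creld2, a secreted chaperone-like protein, -0.23 and -0.78. Clock genes were mixed: 5 of 21 were positive and 7 negative in both (2 and 8 without KO fat 2, WT fat 4 and WT fat 5). Csnk1e, a kinase of the PER proteins, was lower in KO (average -0.22 ± 0.079).

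The other genes of the protein kinase C list were compared with Prkce. The list is not of protein kinase C isoforms alone, since it also holds Prkd2, which encodes protein kinase D2. Of the 10 list members tested in both tissues, 4 were positive in both, 2 negative in both, Prkce and Prkd2, and 4 positive in fat and negative in liver. That split rests on a few fat libraries: without KO fat 2, WT fat 4 and WT fat 5 it was 4, 5 and 1, with a fat median of -0.0072 in place of 0.21, and without WT fat 4 and KO fat 3 it was 4, 4 and 2. None of 12 had an unadjusted p under 0.05 for fat minus liver. Prkca, a conventional isoform, had 0.36 in fat and 0.21 in liver, and Prkci, an atypical isoform, 0.20 and 0.20, and both had an unadjusted p under 0.05 for the average. Prkcd, of the same diacylglycerol-dependent class as Prkce, stood at 23.3, 26.2, 67.5, 25.3 and 30.99 CPM in WT fat and 26.7, 38.4, 63.01, 46.9 and 28.4 CPM in KO fat, highest in WT fat 3 and KO fat 3, where macrophage genes were highest too. Prkcb had its highest value, 19.8 CPM, in KO fat 2, and elsewhere in fat it reached 7.16 CPM.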

How the data were processed

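The authors deposited expected counts per gene, estimated by RSEM 1.2.12 after Trim Galore 0.2.8 and STAR 2.4.0d on GRCm38, per the submitters' processing notes, which also name DESeq2. Libraries were made with a stranded mRNA kit, per the labels' protocols. Which annotation release was used, and whether counting used strand, is not given in the sources. Unequal lengths and transcript composition enter such counts, so levels are not compared between genes.

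Expected counts were rounded and all 20 libraries fitted in edgeR 4.0.16 (R 4.3.3) with TMM scaling, a filter by expression (minimum count 10, minimum total 15) and the robust quasi-likelihood test, for fat minus liver and for the average. Each tissue alone was fitted in the same way with its own scaling. p-values were adjusted by Benjamini-Hochberg over all genes tested, and genes are called at an adjusted p under 0.05. The labels number 5 mice per group, so p-values within a tissue measure the spread between mice. The fit of all 20 libraries took them as independent, although fat and liver libraries may come from the same mice. With same-numbered libraries taken as the same mouse, limma-voom estimated their correlation at -0.0023, on a pairing that the labels do not state. Alternatives were DESeq2 1.42.0, limma 3.58.1 (voom with quality weights), other scalings and filters, the replicate number as a block, removal of the GC and length trend within libraries, and leaving out libraries, some chosen after the data were seen. Gene positions, GC content and length came from GENCODE M21, and promoter windows and motifs from RefSeq, in which the 3 genes shown were found.

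The comparison, the gene lists and the tests were chosen with earlier results of these data known. Genes named are Prkce, the 20 with the smallest p for fat minus liver, the 10 with the smallest p for the average, the 12 of opposite and the 12 of shared direction with the smallest larger p, the gene called in liver, and up to 4 members per list with the smallest p. Some members of the lists are not reported here. Pttg1, Snapc3, Irf7, Ifi27l2a, Adipoq, Adgre1, Cd68, Prkca, Prkci, Prkcd and Prkd2 were named after their values were seen. Of 754 list symbols 1 was not in the table.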

Additional observations from a re-analysis of the deposited data

Results flagged for a closer look

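In 180 groups of 5 libraries, the gap between the highest or lowest library and its nearest neighbour was large against the group's range in 12 cases, and chance alone gives about 1 in 20. Several fall in libraries that stand apart for other reasons. In KO fat 2, which held bladder epithelium transcripts, Tnfrsf21 stood at 44.3 CPM (others 15.9 to 23.5) and Ctse at 83.2 CPM (others 0.270 to 0.348). In KO liver 5, the library with the steepest GC trend, Asns stood at 0.795 CPM (others 0.265 to 0.378) and Chm at 42.9 CPM (others 28.4 to 31.2). In WT liver 2 and WT liver 4, which held skeletal muscle transcripts, Isg20 was at 8.599 CPM (others 4.71 to 5.52) and Tspan4 at 112 CPM (others 67.6 to 75.1).

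KO liver 1 was lowest for Acsm5 at 169 CPM (others 228 to 248) and highest for Ntrk2 at 24.8 CPM (others 10.4 to 13.4). WT fat 4, with hepatocyte transcripts, was highest for Slc22a4 at 34.7 CPM (others 24.3 to 26.1), and KO fat 3 for Ccne1 at 5.15 CPM (others 4.52 to 4.65). WT fat 3 was highest for Ctse at 1.83 CPM (others 0.300 to 0.646), and WT fat 5 lowest for Nudcd2 at 12.1 CPM (others 16.3 to 17.6).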

How the results depend on the processing

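With 5 libraries per group and a median SE of 0.25 (log2) for fat minus liver, small tissue differences could not be called. DESeq2 called 2 genes for fat minus liver, 177 for the average, 16 in fat and 138 in liver, where limma-voom with quality weights called 3 in liver and 0 elsewhere. For genes of opposite direction (12) the count was 22 with limma-voom, 27 with no filter, 5 without KO fat 2, WT fat 4 and WT fat 5, 0 at p under 0.01 and 1 by separate ranges. For genes of shared direction (152) it was 89 with the GC and length trend removed, 60 without those 3 fat libraries, 76 without WT liver 2 and WT liver 4, 14 at p under 0.01 and 7 by separate ranges. In liver alone, 15 genes were called with no filter, 2 with the GC and length trend removed and 3 without WT liver 2 and WT liver 4. For the average, 1 gene was called without WT liver 2 and WT liver 4 (Slc35e4) and 1 without WT fat 4 and KO fat 3 (Cebpb). The cause of these shifts was not tested, beyond the fewer samples or genes that each setting holds.

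Leaving out 1 library at a time gave 0 calls for fat minus liver in all 20 fits and 722 to 1260 genes at an unadjusted p under 0.05, the most without WT fat 3. It gave 0 to 21 calls for the average, 8 (without WT fat 4) to 27 (without WT fat 3) opposite genes, 93 (without WT fat 5) to 218 (without WT fat 2) shared genes, 53 to 137 of them higher and 39 to 81 lower, 0 calls in fat and 0 to 3 in liver. For Prkce fat minus liver ran from -0.49 to -0.22, was -0.59 without WT liver 2 and WT liver 4 and -0.13 without WT fat 4 and KO fat 3. Over 1469 values of 45 single-gene results in alternative fits, 39 passed the threshold and 0 changed sign; as none of these 45 was called to begin with, no call could be lost.

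The replicate number was checked as a pairing. Same-numbered fat and liver libraries of a genotype had correlations of deviations from -0.078 to 0.20 (median 0.029). The median for other numbers was -0.0046, and 3 of the 10 same-numbered pairs correlated best with their own number. These correlations cannot decide whether same-numbered libraries came from the same mouse, since tissues of a mouse need not share deviations. With the replicate block of mouse, fat minus liver had 0 calls and 651 genes at an unadjusted p under 0.05 (Prkce -0.32), and with the GC and length trend also removed 0 and 625 (Prkce -0.32). A block on the replicate number within each tissue matched WT and KO libraries of the same number, which are different mice that no label matches. With it there were 22 opposite and 237 shared genes and 3 calls in liver, and these counts do not check a pairing by mouse.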
